A study of Mus musculus with 2 samples.

Results

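The cells described here are endothelial cells of the mouse lung that carried transcripts of the general capillary genes Gpihbp1, Ptprb and Cd93. They were chosen by their own counts: a barcode needed at least 500 detected genes and at most 10% mitochondrial transcripts, at least 5 transcripts of Cdh5, Pecam1, Cldn5 and Egfl7 together, and at least 3 of Gpihbp1, Ptprb and Cd93 together. Barcodes with 3 or more transcripts of the lymphatic genes Prox1, Mmrn1 and Reln were left out, as were those with any transcript of the arterial gene Gja5, of the leukocyte gene Ptprc or of the epithelial gene Epcam. A further limit kept Col1a1, Col1a2, Col3a1, Dcn and Pdgfra together below 20 per 10000 transcripts of the cell, against fibroblasts. The rule found 159 members among 9900 barcodes that passed the filter, 70 of 5432 in the saline library and 89 of 4468 in the bleomycin library. Transcripts are counted as UMIs (unique molecular identifiers), which mark each captured molecule.

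The study compared sorted lung cells of normal and of fibrotic mice, with 1 library each and 2 libraries in all. Both libraries came from Lepr-Cre;Rosa26-tdtomato mice aged 8 to 10 weeks, in which cells that express Cre from the leptin receptor gene, and all their descendants, carry the red reporter tdTomato. Mice were given saline or bleomycin, a drug that injures the lung and is used to cause fibrosis in mice, and living cells with the reporter were isolated by flow sorting for droplet-based 3′ single-cell RNA sequencing. How many mice went into each library, and the dose, route and day of treatment, were not given in the labels used here. A cell's colour records its lineage rather than its present Lepr expression, so the members need not represent all capillary cells of the lung. With 1 library in each group no test was made, and no difference below has a replicate check.

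Lung capillaries are built of general capillary cells and of aerocytes, the large thin cells through which gas is exchanged and which express Car4 and Ednrb. General capillary cells regulate vascular tone, divide after injury and can give rise to both kinds of capillary cell. Gpihbp1 carries lipoprotein lipase to the capillary surface, Ptprb is a phosphatase that acts on the receptor Tek and on endothelial junctions, and Cd93 is a surface lectin-like receptor. Capillary endothelium of the lung can also present antigen on MHC class II, whose genes are induced by interferon gamma.

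Members had a median of 5886.5 UMIs in the saline library and 7297 in the bleomycin library, and their UMIs summed to 539563 and 763276. The 4468 bleomycin barcodes as a whole were deeper, with a median of 12409 UMIs against 6364.5 after saline. The libraries had 33 barcodes in common, and no barcode was a member in both. Levels below are UMIs per 1000000 UMIs of the summed members (UPM), and ratios are log2 of bleomycin over saline with 1 UPM added to each. Values in square brackets are exact 95% intervals that cover counting error only. The words rose and fell are kept for genes with at least 50 UMIs and at least 10 positive cells in the higher library and a difference of at least 2-fold.

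Some members carried transcripts of a second cell type. Among the 70 saline members, 16 had at least 30 per 10000 UMIs of 8 alveolar fibroblast genes that the rule does not use, among them Inmt, Npnt and Tcf21. In 1 of these 16, surfactant genes of alveolar type 2 cells also passed 100 per 10000, and 1 further member held at least 10 per 10000 of pericyte genes. That makes 17 mixed saline members against 1 of 89 after bleomycin. The remaining 53 saline members had at most 15.4 per 10000 of the alveolar fibroblast genes, and the remaining 88 bleomycin members at most 6.15. Mixed saline members were deep, with a median of 12674 UMIs against 4289 in the others. The doublet score of Scrublet placed only 2 of the 17 among the highest scores of the library. Whether these barcodes are doublets was not tested, and the limits were set after the data were seen, so results below are given for all members and with mixed barcodes left out.

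**Figure D1:**
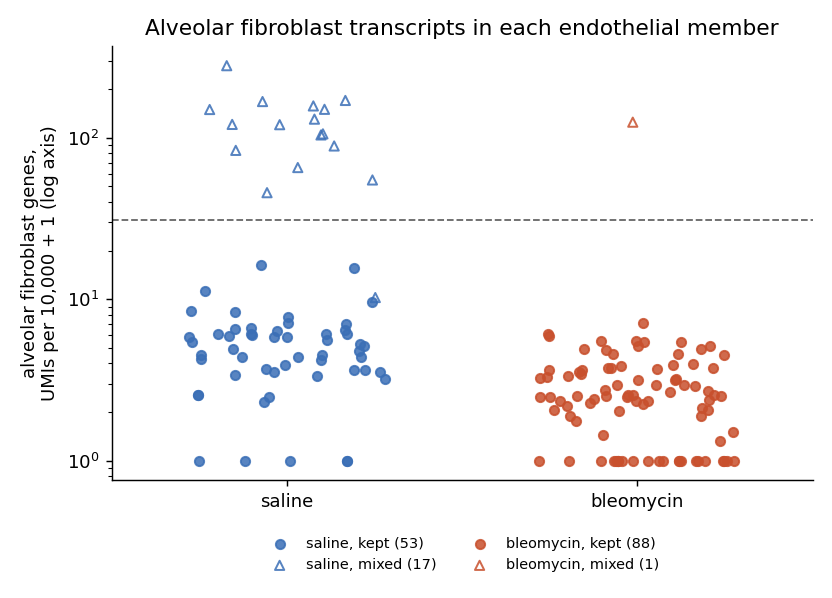
Each point is 1 member, with the UMIs of 8 alveolar fibroblast genes per 10000 UMIs plus 1 on a log axis, by library; triangles are mixed members and the dashed line is the limit of 30. A separate group of saline members lies above the line, together with 1 bleomycin member, and the saline triangle below the line is the member with pericyte genes.

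Members were a small share of both sorts and a somewhat larger one after bleomycin. They were 1.29% [1.01 to 1.63] of saline barcodes and 1.99% [1.60 to 2.45] of bleomycin barcodes. With mixed barcodes left out the shares were 0.976% [0.732 to 1.27] and 1.97% [1.58 to 2.42]. When every barcode was thinned to 2000 UMIs before the rule was applied, 52 saline and 58 bleomycin barcodes qualified, 0.957% [0.716 to 1.25] and 1.30% [0.987 to 1.67], and the intervals of the libraries overlap here as they do for all members without thinning. The limits on other cell types removed different barcodes in each library: 3 saline and 21 bleomycin barcodes failed on the lymphatic genes alone, 28 and 24 on Gja5 alone, and 20 and 9 on the fibroblast genes alone. Close to the fibroblast limit, 12 saline members lay between 15 and 20 per 10000 and 7 saline barcodes lay just outside, between 20 and 25, against 1 and 1 after bleomycin. Of the members, 5 saline and 3 bleomycin cells had exactly 3 UMIs of the capillary genes, and 2 and 0 otherwise qualifying barcodes had 2.

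The genes that chose the members were high in both libraries, as the rule requires. Cldn5, which seals endothelial tight junctions, stood at 1401 UPM after saline and 1600 after bleomycin, and Egfl7, a secreted endothelial protein, at 1842 and 1853. Ptprb stood at 921 and 742 UPM and Cd93 at 810 and 565. Gpihbp1 stood at 526 [467 to 591] and 1119 [1045 to 1196] UPM. All of these were near 0 in fibroblasts: Gpihbp1 was at 1.07 and 0.825 UPM in barcodes with fibroblast genes, of which there were 3639 and 3615, and Cldn5 at 1.76 and 1.20.

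The name of general capillary cells describes only a portion of the members. Ptprb and Cd93 are shared with veins, and many members carried venous genes that the rule did not use: Vwf, the clotting factor stored by larger vessels, Ackr1, the chemokine receptor of postcapillary venules, Slc6a2, a noradrenaline transporter of pulmonary veins, Selp, Vcam1 and Car8. With every member thinned to 2000 UMIs, 19 of 70 saline members had at least 3 UMIs of these 6 genes, 27.1% [17.2 to 39.1], against 54 of 89 bleomycin members, 60.7% [49.7 to 70.9]. With mixed barcodes left out the shares were 34.0% [21.5 to 48.3] and 61.4% [50.4 to 71.6], and without thinning 37.1% and 75.3%. A range cut from a score is not a cell type, and 3 saline and 12 bleomycin members lay at the limit or 1 UMI below it. Vwf was at 1.19 and 1.20 UPM in the fibroblast barcodes, against 500 and 1055 in the members. Slc6a2, Ackr1, Selp and Car8 were at 6.24 UPM or less in the fibroblast barcodes. Vcam1 was not low there, at 426 and 174 UPM against 449 and 313 in the members. The aerocyte genes Car4, Ednrb, Apln, Fibin and Tbx2 reached 3 UMIs in 1 of 70 saline and 0 of 89 bleomycin members after thinning, and the count of 0 allows a share of up to 3.37% when 3 counts are taken as the floor, while its exact interval reaches 4.06%. Without thinning, 25.7% and 12.4% of members reached 3 UMIs of the aerocyte genes.

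After saline, venous genes and Gpihbp1 lay mostly in different cells. Among members without mixed barcodes, thinned to 2000 UMIs, 29 of 35 saline cells below the venous limit held a Gpihbp1 UMI, 82.9% [66.4 to 93.4], against 1 of 18 above it, 5.56% [0.141 to 27.3]. After bleomycin the counts were 24 of 34 below the limit, 70.6% [52.5 to 84.9], and 31 of 54 above it, 57.4% [43.2 to 70.8]. Gpihbp1 and venous genes were thus found together in 31 of 88 bleomycin cells and in 1 of 53 saline cells. Gpihbp1 is 1 of the 3 capillary genes that chose the members, so these counts describe the cells chosen and are not independent of the rule. Summed over cells with at least 3 venous UMIs before thinning, which were 21 and 67, Gpihbp1 stood at 145 and 1001 UPM. In the cells with fewer venous UMIs, 32 and 21, it stood at 1013 and 1577 UPM. Levels given below on either side of the venous limit use this split before thinning. In the fibroblast barcodes thinned alike, 0.247% of saline and 0.166% of bleomycin barcodes held a Gpihbp1 UMI, at median depths of 6787 and 13543 UMIs before thinning.

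**Figure D2:**
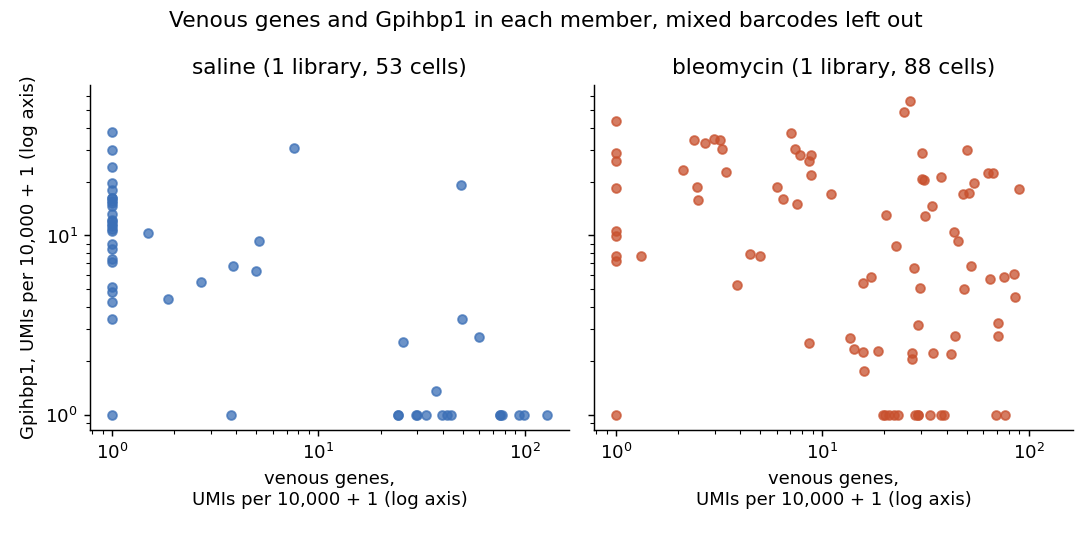
Each point is 1 member with mixed barcodes left out; the x axis is the UMIs of 6 venous genes and the y axis those of Gpihbp1, each per 10000 UMIs plus 1 on log axes, with 53 saline cells on the left and 88 bleomycin cells on the right. The upper right of the plot, where both are high, is nearly empty after saline and filled after bleomycin, in cells that were chosen in part by Gpihbp1.

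Of 6920 genes with at least 20 UMIs in all members, 113 rose (1.63%) and 174 fell (2.51%) after bleomycin, with a median ratio of -0.02. Epithelial and alveolar fibroblast genes were among those that fell. With mixed barcodes left out, 115 of 6246 genes rose (1.84%) and 82 fell (1.31%), with a median of -0.01. Leaving them out also lowered the summed saline UMIs from 539563 to 336755. How much of the change in these counts comes from the lower sum was not tested. Of the 113 genes that rose in all members, 71 also rose without mixed barcodes, 62.8%, and of the 174 that fell 55 also fell, 31.6%. Where a gene also had to stand at least 2-fold above its level in fibroblast and in immune barcodes, 66 rose (0.954%) and 54 fell (0.780%) in all members, and 38 (0.608%) and 55 (0.881%) without mixed barcodes. Counted in members with fewer than 3 venous UMIs, mixed barcodes included, 46 of 3803 genes rose (1.21%) and 128 fell (3.37%), of which 19 (0.5%) and 40 (1.05%) also stood above the other lineages. Counted in members with 3 or more, 101 of 5259 rose (1.92%) and 52 fell (0.989%), of which 57 (1.08%) and 11 (0.209%) stood above them.

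Lrg1, which encodes a secreted glycoprotein that modifies TGF-beta signalling and vessel growth, was among the 12 highest ratios. It rose from 534 [474 to 599] to 3156 [3031 to 3285] UPM, a ratio of 2.56, and without mixed barcodes from 757 to 3206 (2.08). A Lrg1 UMI was seen in 18 of 70 saline members, 25.7% [16.0 to 37.6], and in 78 of 89 bleomycin members, 87.6% [79.0 to 93.7], each thinned to 2000 UMIs. In fibroblast barcodes the same shares were 0.275% and 4.48%. In the saline library 45.5% of all Lrg1 UMIs of the members came from 1 cell, while after bleomycin the cell richest in Lrg1 gave 4.03%. The increase was present in cells on both sides of the venous limit: from 105 to 1008 UPM below it and from 1436 to 3809 above it. Summed levels do not tell more positive cells from more RNA in each cell, and here the share of positive cells rose too.

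Ly6c1 and Ly6a, surface proteins of the Ly6 family that mark mouse endothelium and are induced by interferons, also rose. Ly6c1 went from 688 [619 to 761] to 2333 [2226 to 2444] UPM (1.76), and without mixed barcodes from 831 to 2362 (1.51). Ly6a went from 1203 to 3109 UPM (1.37), and without mixed barcodes from 1500 to 3144 (1.07). Both were higher after bleomycin on both sides of the venous limit, Ly6c1 with ratios of 1.48 below and 1.68 above it and Ly6a with 1.04 and 1.37. Fibroblast barcodes had 15.8 and 95.4 UPM of Ly6c1 and immune barcodes 9.60 and 9.10.

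Lpl, lipoprotein lipase, the enzyme that Gpihbp1 binds, rose from 113 [86.5 to 145] to 960 [892 to 1033] UPM (3.08), and without mixed barcodes from 134 to 976 (2.86). In cells above the venous limit it stood at 42.4 and 995 UPM, and below it at 221 and 903. Immune barcodes, which hold alveolar macrophages, had more Lpl than the members, 1527 and 1132 UPM, and fibroblast barcodes had 96.9 and 208. What part of the members' Lpl is free RNA was not tested. Among 11 measured genes of lipid uptake and handling, 3 rose (Lpl, the fatty acid binding protein gene Fabp4 and Gpihbp1, which is a gene of the rule), 0 fell and the median was 0.25. Without mixed barcodes only Lpl of 9 rose. The fatty acid receptor Cd36 stood at 806 and 588 UPM, a ratio of -0.45.

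Of 11 measured venous genes 6 rose in all members, 0 fell and the median was 1.06, while without mixed barcodes 3 of 11 rose and the median was 0.73. Slc6a2 went from 83.4 to 455 UPM (2.43), with positive counts in 8 and 45 cells, and without mixed barcodes from 134 to 462 (1.78). Ackr1 went from 100 to 379 UPM (1.91), with 10 and 35 positive cells, and without mixed barcodes from 137 to 385 (1.49). Nr2f2, a transcription factor of venous fate, rose only without mixed barcodes, from 89.1 to 245 UPM (1.45). Vwf rose in all members (1.07) but stood at 748 and 1070 UPM without mixed barcodes, a ratio of 0.52. Selp, Vcam1 and Car8, which also count toward the venous limit, did not rise. In all members Selp stood at 374 and 354 UPM (-0.08), Vcam1 at 449 and 313 (-0.52) and Car8 at 51.9 and 66.8 (0.36).

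Of the genes that passed the size rule in all members and stood above the other lineages, the highest ratio was that of Rgs5, a regulator of G protein signalling best known from pericytes, with 2 UMIs after saline and 92 after bleomycin (3.71 and 121 UPM). It was positive in 2 and 29 cells, and 0 of its bleomycin UMIs lay below the venous limit without mixed barcodes. Peg3, an imprinted gene, had 2 and 91 UMIs, and 49.5% of the latter came from 1 cell. Ankrd37, a target of hypoxia-inducible factors, rose from 16.7 to 215 UPM (3.61) with 7 and 43 positive cells. Without mixed barcodes Ankrd37 stood at 17.5 and 303 UPM below the venous limit and at 30.3 and 195 above it. Itgb3, the beta chain of the vitronectin receptor, rose from 5.56 to 65.5 UPM, and Dusp2, a MAP kinase phosphatase, from 7.41 to 77.3. Further genes among the highest ratios were Rasd1, a small GTPase induced by glucocorticoids (24.1 and 185 UPM), Mylip, an E3 ligase of the LDL receptor (25.9 and 134), Armcx4 (22.2 and 110), the transcription factor gene Myc (24.1 and 118) and Inhbb, an activin subunit (20.4 and 83.8). All of these stayed past the size rule without mixed barcodes. Dusp2 had 0 UMIs below the venous limit in either library. Rasd1 stood there at 40.8 and 18.6 UPM, from fewer than 50 UMIs in each library, so its direction there cannot be read. All saline members together held 13 Rasd1 UMIs.

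Genes of angiogenic tip cells and of the injury state, a list that holds Lrg1, Ankrd37 and Inhbb, rose in 5 of 16 measured members with a median of 0.78, and in 4 of 16 with a median of 0.37 without mixed barcodes. Igfbp3, an insulin-like growth factor binding protein in that list, stood at 135 and 333 UPM in all members and at 14.8 and 338 without mixed barcodes, with 4 and 19 positive cells. Fkbp5, a glucocorticoid-induced co-chaperone, rose from 18.5 to 138 UPM (2.83), with 8 and 48 positive cells, and fibroblast barcodes had 11.4 and 90.5 UPM. Its list of 10 glucocorticoid-responsive and metallothionein genes had 2 that rose, 1 that fell and a median of 0.61. The hypoxia and glycolysis list had 3 of 16 that rose, 1 that fell (Vegfa, from 141 to 68.1 UPM) and a median of 0.55, and without mixed barcodes 2 of 15 rose, 1 fell and the median was 0.29. Of 10 measured cell cycle genes 0 rose and 0 fell, with a median of 0.60, and Top2a was seen in 1 saline and 10 bleomycin cells.

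**Figure D3:**
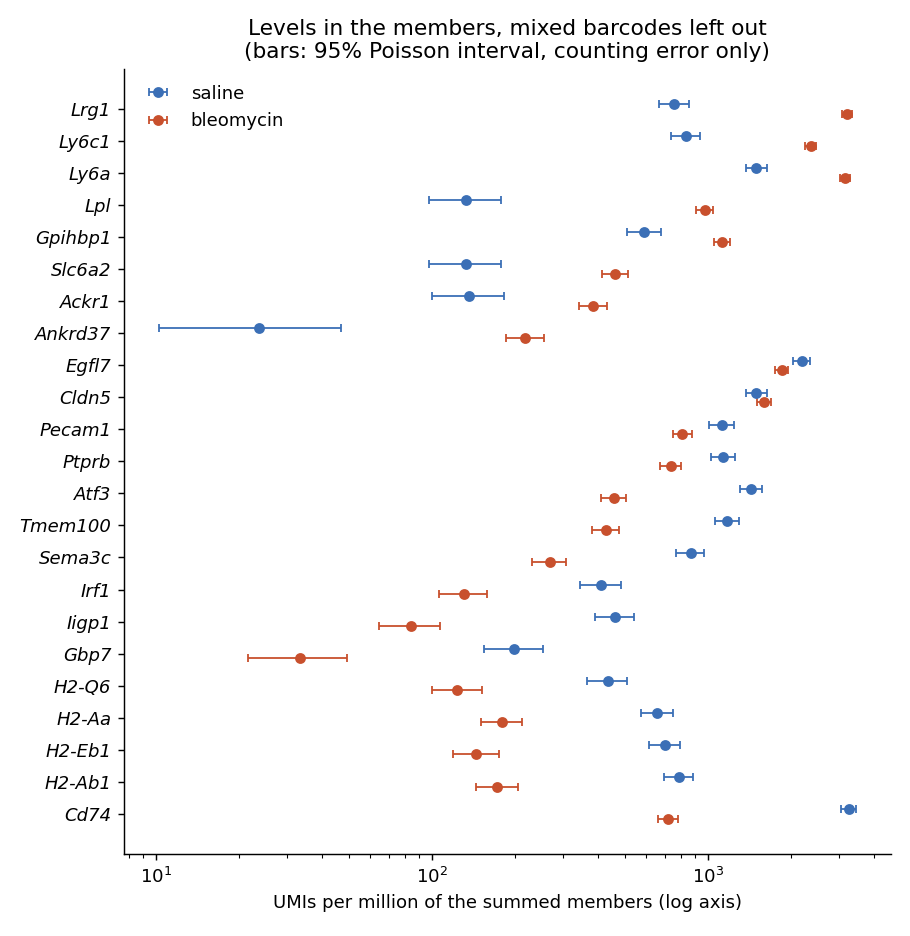
Levels of selected genes in the summed members without mixed barcodes, in UPM on a log axis, with exact 95% Poisson intervals that cover counting error only; blue is the saline and orange the bleomycin library. Lrg1, Ly6c1, Ly6a and Lpl lie to the right after bleomycin, Egfl7 and Cldn5 nearly coincide, and the class II genes and Cd74 lie to the left.

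MHC class II genes fell together, and this was the gene list with the lowest median apart from lists of other cell types. All 6 measured members fell, with a median of -1.95, and all 6 fell without mixed barcodes, with a median of -2.17. Cd74, the invariant chain that guides class II molecules to the endosome, went from 2732 [2594 to 2875] to 710 [652 to 772] UPM (-1.94). H2-Ab1 went from 684 to 174 UPM (-1.97), H2-Eb1 from 608 to 145 (-2.06) and H2-Aa from 563 to 182 (-1.62), the chains of the class II molecules themselves. H2-DMa went from 143 to 28.8 UPM (-2.27) and H2-DMb1 from 161 to 49.8 (-1.68), the chains of the peptide exchanger DM. Ciita, the class II transactivator, was in the list but had fewer than 20 UMIs.

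The loss of class II transcripts was seen in the number of positive cells as well as in the sum. Cd74 was at 0 UMIs in 14 of 70 saline and 56 of 89 bleomycin members. After thinning to 2000 UMIs, 72.9% [60.9 to 82.8] of saline and 24.7% [16.2 to 35.0] of bleomycin members held a Cd74 UMI. The same shares in fibroblast barcodes were 10.3% and 2.57%, lower than in the members but also lower after bleomycin. Cd74 stood at 113 and 34.6 UPM in fibroblast barcodes. What part of the members' Cd74 is free RNA was not tested. Immune barcodes had 4799 and 4658 UPM of Cd74. Below the venous limit, without mixed barcodes, Cd74 stood at 5514 UPM after saline and 1243 after bleomycin, and above it at 873 and 577. The other class II genes were lower below the limit too, and above it H2-Aa was the exception. H2-Aa stood at 1130 and 247 UPM below the limit and at 164 and 161 above it. H2-Ab1 stood at 1252 and 278 UPM below and at 303 and 144 above, and H2-Eb1 at 1136 and 241 below and at 242 and 119 above. H2-DMa and H2-DMb1 stood above the limit at 66.7 and 23.7 and at 103 and 49.2 UPM, from 29 UMIs or fewer in each library. These levels split the cells before thinning, and the shares that follow split them after it, so the sets of cells differ. After thinning, 31 of 35 saline and 17 of 34 bleomycin cells below the limit held a UMI of Cd74, H2-Aa, H2-Ab1 or H2-Eb1. These are 88.6% [73.3 to 96.8] and 50% [32.4 to 67.6]. Above the limit the counts were 10 of 18 and 14 of 54, 55.6% [30.8 to 78.5] and 25.9% [14.96 to 39.7]. The difference between the ranges was not tested.

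Class II promoters share a module known as the X and Y boxes, to which RFX and NF-Y factors bind and recruit Ciita. The 200 bases before the start of 3 class II genes are shown because the genes fell together. Sequences are from RefSeq with the build GRCm38.p6, 5′ to 3′ on the strand of the gene, and capitals mark matches to CTNGNAAC, taken for the X box, and to TGATTGG, the core of the Y box, each searched on both strands. H2-DMb1 lies at chr17:34152991-34153190 on the plus strand, H2-Aa at chr17:34287824-34288023 on the minus strand and H2-Eb1 at chr17:34305667-34305866 on the plus strand.
H2-DMb1: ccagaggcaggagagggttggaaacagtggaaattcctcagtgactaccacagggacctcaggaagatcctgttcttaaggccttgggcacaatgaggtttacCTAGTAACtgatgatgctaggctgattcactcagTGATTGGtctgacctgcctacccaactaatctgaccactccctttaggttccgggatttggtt
H2-Aa: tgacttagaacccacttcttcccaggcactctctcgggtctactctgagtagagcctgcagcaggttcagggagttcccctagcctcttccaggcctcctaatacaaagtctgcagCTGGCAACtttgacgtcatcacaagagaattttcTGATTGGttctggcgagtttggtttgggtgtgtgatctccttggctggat
H2-Eb1: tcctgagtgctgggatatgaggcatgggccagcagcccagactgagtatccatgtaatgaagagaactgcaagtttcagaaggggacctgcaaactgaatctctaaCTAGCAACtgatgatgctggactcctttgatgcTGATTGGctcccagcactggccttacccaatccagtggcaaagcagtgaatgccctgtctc
Of 4 class II genes matched to the promoter table these 3 hold both motifs, with the X box before the Y box. Among 32851 promoter windows of the same length, 8.97% hold the X box letters and 6.57% the Y box letters. In these 3 promoters the Y box begins 50 to 63 bases before the start and the X box 84 to 97 bases before it. A match is a description of letters and not evidence of binding.

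**Figure D4:**
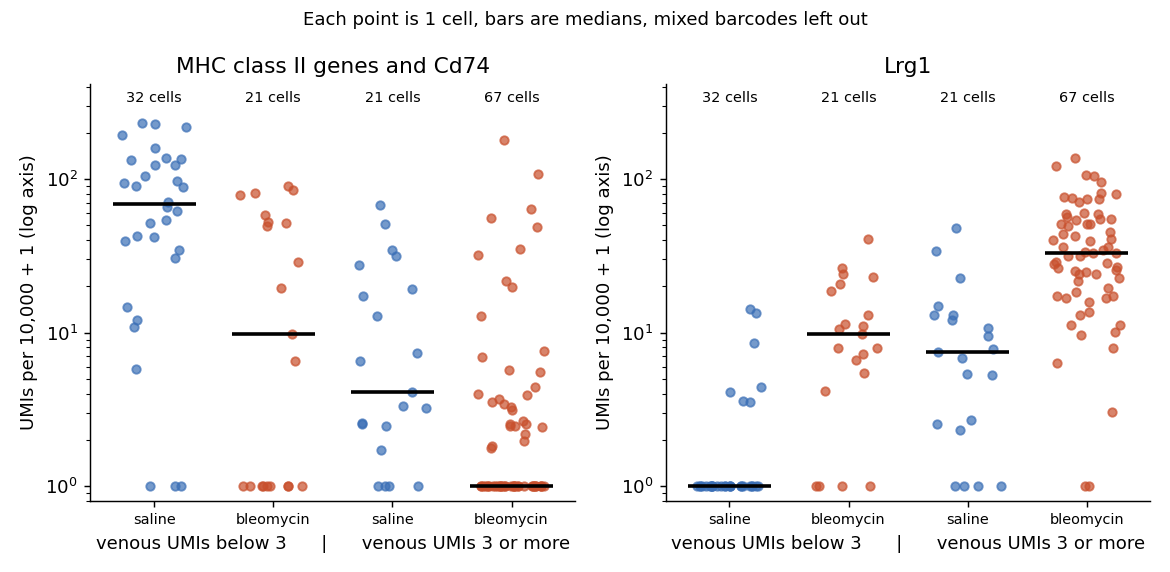
UMIs per 10000 plus 1 on log axes for H2-Aa, H2-Ab1, H2-Eb1 and Cd74 together (left) and for Lrg1 (right), each point 1 member with mixed barcodes left out, split at 3 venous UMIs, with black bars at the medians. Class II transcripts are highest in saline cells below the venous limit, and most bleomycin cells above it lie at 0, while Lrg1 is at 0 in most saline cells below the limit and present in most bleomycin cells.

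Interferon-response genes were mostly lower as well. Of 26 measured members 2 rose and 6 fell, with a median of -1.11, and without mixed barcodes 2 of 24 rose and 5 fell with a median of -1.49. The genes that rose were Ly6a and Ly6c1. Iigp1, an immunity-related GTPase, fell from 363 to 83.8 UPM (-2.10), Gbp7, a guanylate-binding protein, from 163 to 32.8 (-2.28) and Igtp, another immunity-related GTPase, from 107 to 35.4 (-1.58). Irf1, an interferon regulatory factor, fell from 311 to 128 UPM (-1.27). Without mixed barcodes Iigp1 stood at 460 and 83.9 UPM, and it was lower on both sides of the venous limit, with 419 and 55.7 UPM below and 503 and 91.6 above it. Isg15 stood at 141 and 73.4 UPM (-0.93) and the transmembrane protein gene Ifitm3 at 3440 and 4014 (0.22).

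The ISRE, a DNA element bound by interferon regulatory factors, was searched on both strands as 2 copies of GAAA with any 2 bases between them. It was found in the 200-base windows of 12 of 23 matched interferon-response genes, and 2.27% of all 32851 windows hold it. The windows of Gbp7 at chr3:142530136-142530335 and of Igtp at chr11:58199356-58199555, both on the plus strand, are shown as examples of genes that fell, with the match in capitals. The match in Gbp7 is on the opposite strand and begins 53 bases before the start, and that in Igtp begins 34 bases before it.
Gbp7: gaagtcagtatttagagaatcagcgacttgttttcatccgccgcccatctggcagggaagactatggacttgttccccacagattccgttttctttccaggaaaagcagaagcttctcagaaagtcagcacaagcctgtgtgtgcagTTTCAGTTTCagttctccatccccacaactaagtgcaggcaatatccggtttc
Igtp: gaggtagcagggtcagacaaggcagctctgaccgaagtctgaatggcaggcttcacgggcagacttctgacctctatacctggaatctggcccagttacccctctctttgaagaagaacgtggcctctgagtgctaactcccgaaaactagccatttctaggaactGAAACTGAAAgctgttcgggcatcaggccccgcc

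MHC class I genes were lower by less. Of 14 measured genes of class I and of peptide loading 0 rose and 3 fell, with a median of -0.80, and without mixed barcodes 0 rose and 4 fell with a median of -0.85. The genes that fell in all members were H2-Q6 (350 and 124 UPM), H2-Q4 (382 and 148) and H2-Q7 (515 and 254). These are near-identical copies, so the division of reads among them is uncertain. H2-K1 stood at 1603 and 926 UPM and B2m, the light chain of all class I molecules, at 5453 and 3320, ratios of -0.79 and -0.72. In fibroblast barcodes B2m stood at 5023 and 1768 UPM. H2-Q6, H2-Q4 and H2-Q7 were lower there too, at 20.9 and 1.61, 109 and 15.3, and 85.8 and 11.7 UPM. The ratios of H2-Q6, H2-Q4 and H2-Q7 were -3.54, -1.22 and -2.19 in immune barcodes. They were -4.70, -3.31 and -2.86 in lymphatic barcodes, and -0.38, -0.28 and -0.13 in arterial barcodes.

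Sema3c and Tmem100, genes of capillary endothelium, were lower after bleomycin. Sema3c, a secreted guidance protein and a marker of general capillary cells, fell from 765 to 280 UPM (-1.45), and Tmem100, a membrane protein downstream of BMP receptors, from 1225 to 438 (-1.48). In cells below the venous limit without mixed barcodes, Sema3c stood at 1561 and 445 UPM and Tmem100 at 1974 and 829. Above the limit they stood at 145 and 219 UPM and at 345 and 317. Of 11 measured general capillary markers 1 rose (Gpihbp1), 1 fell (Sema3c) and the median was -0.43, in a list that includes genes of the rule. Without mixed barcodes Gpihbp1 stood at 588 and 1125 UPM (0.93) and did not pass the size rule. The apelin receptor Aplnr stood at 158 and 130 UPM, and Car4, the aerocyte carbonic anhydrase, at 106 and 72.1. Neurl3, an E3 ubiquitin ligase, had the lowest ratio among genes above both other lineages without mixed barcodes, with 163 and 13.3 UPM (-3.52) and 24 and 9 positive cells.

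None of the genes shared by all endothelial cells passed the size rule. Of 25 measured pan-endothelial genes, which include those of the rule, 0 rose and 0 fell, with a median of 0.01 in all members and -0.28 without mixed barcodes. Kdr, the main VEGF receptor, stood at 234 and 151 UPM and Tek, the angiopoietin receptor, at 321 and 240. Of 23 endothelial transcription factors 0 passed in either direction in all members, with a median of -0.11. The same holds for 15 measured p53 target genes with a median of -0.05, among them Cdkn1a at 888 and 1002 UPM. Immediate early genes, which also respond to tissue digestion, had 0 that rose and 3 that fell of 23, with a median of -0.51: Atf3 from 1101 to 451 UPM, Egr1 from 803 to 304 and Fosb from 452 to 190. They were lower in fibroblast barcodes too, with 354 and 84.3 UPM of Atf3 and 1381 and 291 of Egr1.

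**Figure D5:**
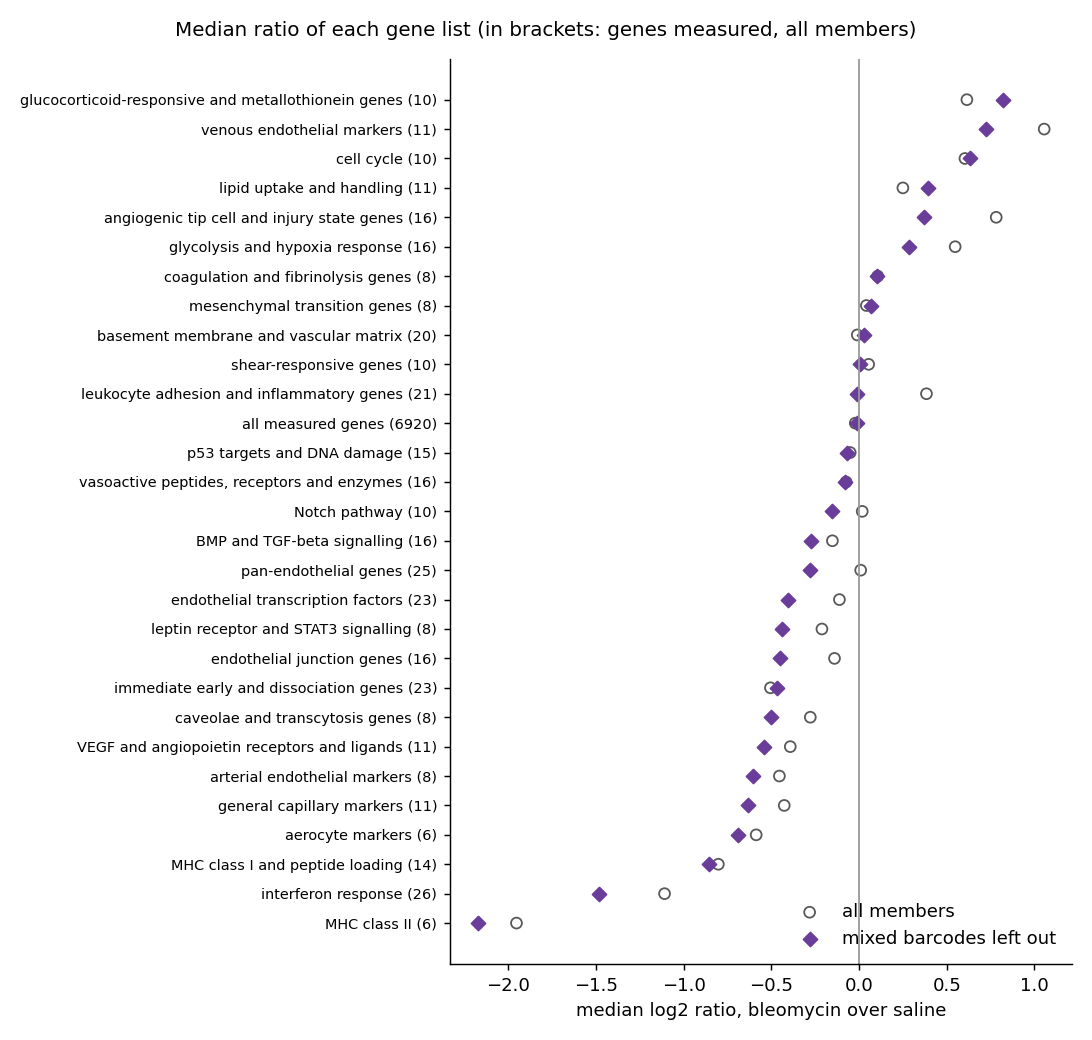
Median log2 ratio of bleomycin over saline for each list with at least 5 measured genes, open circles for all members and purple diamonds with mixed barcodes left out; the number of measured genes is in brackets. Lists of other cell types are not drawn; of the lists drawn, MHC class II (-1.95 and -2.17) and the interferon response (-1.11 and -1.49) lie farthest to the left. Venous genes lie farthest to the right in all members (1.06) and glucocorticoid-responsive genes (0.82) with mixed barcodes left out.

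Many of these differences were present in other endothelial cells of the sort. Arterial barcodes had at least 5 UMIs of Cdh5, Pecam1, Cldn5 and Egfl7 and held a Gja5 UMI, with no minimum of Gpihbp1, Ptprb and Cd93. They numbered 32 after saline and 24 after bleomycin. In them Lrg1 stood at 36.3 and 938 UPM, Lpl at 29.0 and 543, Ly6a at 1171 and 3429, and Gpihbp1 at 268 and 993. Cd74 stood at 1200 and 444 UPM there and Irf1 at 247 and 76.8. Lymphatic barcodes, 19 and 71, also had less Cd74, 1307 and 28.4 UPM, but not more Lrg1, with 789 and 538. Slc6a2 and Ackr1 were at 0 UMIs in arterial and in lymphatic barcodes of both libraries. The other genes that count toward the venous limit were not absent from arterial barcodes. Vwf stood there at 1110 and 1394 UPM, against 500 and 1055 in all members, and Vcam1 at 453 and 263, against 449 and 313. Selp stood at 97.9 and 43.9 UPM in arterial barcodes and Car8 at 25.4 and 0. In lymphatic barcodes Vwf, Vcam1, Selp and Car8 were at 11.8 UPM or less. Whether the members differ from arterial and lymphatic cells in their response was not tested, since there is 1 library in each group.

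Transcripts of other cells differed between the libraries and are given here for the lists as a whole. Of 8 measured epithelial genes 6 fell, and the list summed to 9174 UPM in saline and 19.7 in bleomycin members; without mixed barcodes it summed to 1785 and 19.96. Surfactant protein gene Sftpc was at 579 and 2.66 UPM without mixed barcodes, against 778 and 13.3 in fibroblast barcodes. Alveolar fibroblast genes summed to 10974 and 2969 UPM over 10 measured genes, 7 of which fell, and to 1853 and 2622 without mixed barcodes. Macrophage and monocyte genes summed to 1225 and 424 UPM, and to 505 and 423 without mixed barcodes. Lymphocyte, neutrophil, platelet and red cell genes had 0 measured members. Spp1, osteopontin, stood at 7.41 and 187 UPM in the members and at 14.1 and 4885 in fibroblast barcodes. The part of free RNA in any of these levels was not tested.

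Lepr itself was low in the members of both libraries. It stood at 40.8 [25.6 to 61.7] UPM after saline and 34.1 [22.3 to 49.9] after bleomycin, a ratio of -0.25, with 22 and 26 UMIs. After thinning, 7 of 70 and 4 of 89 members held a Lepr UMI, 10.0% [4.12 to 19.5] and 4.49% [1.24 to 11.1], and without thinning 22.9% and 22.5%. In 349 saline barcodes with an Epcam UMI the thinned share was 2.29% [0.995 to 4.47] at a median depth of 6479 UMIs before thinning. Fibroblast barcodes had 45.1 and 3.64 UPM of Lepr and lymphatic barcodes 47.1 and 9.48. Immune barcodes stood at 82.1 [70.2 to 95.3] and 47.4 [38.6 to 57.8] UPM. Arterial barcodes stood at 61.6 [35.9 to 98.7] and 60.4 [30.1 to 108] UPM, from 17 and 11 UMIs. These levels were above those of the members, but only the interval of immune barcodes after saline does not overlap that of the members. Without mixed barcodes Lepr lay mainly above the venous limit, at 78.8 and 44.1 UPM against 11.6 and 0 below it.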

How the data were processed

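Barcode, gene and matrix tables were deposited for each library; their values are raw UMI counts per gene and barcode, made with Cell Ranger 2.1.1 on mm10, per the submitters' processing notes. Totals per member ranged from 2405 to 31611 UMIs. Counts were summed over members of each library (Python 3.11.15, scipy 1.17.1); with 1 library in each group no model was fitted. Intervals are exact Poisson for levels, conditional binomial for ratios and Clopper-Pearson for shares. Fibroblast barcodes had the rule's fibroblast genes at 20 or more per 10000 and fewer than 2 endothelial UMIs, immune barcodes a Ptprc UMI. Scrublet in scanpy 1.11.5 marked 8 and 5 barcodes by its own threshold, too few to use, so the 236 and 160 highest scores served as an alternative and no barcode was removed. Genes named are the 12 highest and 12 lowest ratios above other lineages, with and without mixed barcodes, up to 4 for each list, leading and rule genes and a set of 14; other list members were named after their values were seen. Members and the 37 lists were chosen with earlier results of these data known. Groups come from the labels, and barcodes of unknown type were not analysed here. One list member is not reported here.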

Additional observations from a re-analysis of the deposited data

How the results depend on the processing

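No paired analysis was possible because each group has 1 library, and for the same reason no library could be left out. Counts of genes followed the minimum: 286 rose and 401 fell (135 and 111 above other lineages) at 20 UMIs, 1973 and 2503 (778 and 777) with no minimum, and 58 and 84 (38 and 25) at 100. With members thinned to 2000 UMIs 38 rose and 45 fell (23 and 19), and 5 lists had a median of at least 1 in size, against 9. Without members of 3 or more aerocyte UMIs 78 fell (21); without those of 3 or more venous UMIs 46 rose (19) and 5 lists passed; with only those, 52 fell (11) and 5 lists passed. With fibroblast genes below 5 per 10000, 95 fell and 32 rose above other lineages, and with mixed barcodes left out 82 fell and 38 rose above them. Scaling by median of ratios gave 134 and 154, so the share of calls that rose was larger.

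Shares of members moved to 0.957% and 1.30% after thinning every barcode, to 1.80% and 2.53% without the condition on Gja5, to 0.920% and 1.54% at the stricter fibroblast limit, and to 0.976% after saline without mixed barcodes. The aerocyte shares were 25.7% and 12.4% without thinning, and 5.62% after bleomycin at 2 UMIs. The venous share after bleomycin was 75.3% without thinning and 39.3% at 1000 UMIs. Of 91 named genes 60 kept their call without mixed barcodes, 31 fell short of it and 0 changed sign. Ratios changed sign for Amigo2 (-0.18), Rasd1 (-0.40) and Rgs5 (-2.11) without members of 3 or more venous UMIs, for Scn7a (0.0792) and Sema3c (0.11) with only those, and for Limch1 (0.23) at the stricter fibroblast limit. The causes were not tested. All saline members together held 31, 13 and 2 UMIs of Amigo2, Rasd1 and Rgs5. With 70 and 89 cells, genes under 50 UMIs could not be read, and a difference below 2-fold is not described as absent.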

Other observations

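Genes outside the rule for names were looked at after their values were seen. Serpina3n, a secreted protease inhibitor of the acute phase, stood at 8.91 UPM after saline and 446 after bleomycin in members without mixed barcodes. Fibroblast barcodes held more Serpina3n than the members in both libraries, at 279 and 698 UPM. Among the members after bleomycin it was highest in cells with 3 or more venous UMIs. It stood there at 6.06 and 555 UPM, against 11.6 and 49.5 in the others. Ctla2a, which encodes an inhibitor of cathepsin L-like proteases, stood at 1663 and 4211 UPM, and in the lymphatic barcodes at 294 and 1107. In fibroblast barcodes Ctla2a stood at 3.52 and 1335 UPM. Csrp2, a LIM domain protein, stood at 425 and 992 UPM, and Ackr3, a scavenging receptor for Cxcl12, at 143 and 323. No explanation is offered for these values.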
